A study of Mus musculus with 12 samples.

Results

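Cluster 6 of the 28W kidney library is the group of CD8+ T cells with the most *Pdcd1* per unit of RNA in these data. Its members were taken from the cluster numbers that the authors deposited for every cell barcode. It held 604 of 7135 kidney cells (8.47%, exact 95% binomial interval 7.83 to 9.14) and 604 of 20510 cells in all 3 libraries. The cluster was picked out for *Pdcd1*, so the *Pdcd1* level is given as a description.

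PD-1+CD44+CD8+ T cells were sorted from NZB/W F1 mice, a lupus-prone cross in which females develop nephritis with age. The libraries were 12W spleen, 28W spleen and 28W kidney, from mice of 12 or 28 weeks that carried no treatment in the labels, and kidneys were digested with collagenase before the sort. Each group has 4 labelled samples, whose titles have the form of sequencing lane names, so they may not be separate animals or preparations. Their cells are pooled in 1 table with no map from cell to sample, so there is 1 library per group and no replicate. The title gives 28 weeks for 28W spleen while its age field reads 12 weeks, and the title was used. The number of mice behind each library is not given in the sources used here. The sort itself selected *Cd8a*, *Cd44* and *Pdcd1* at the protein level.

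PD-1, encoded by *Pdcd1*, is an inhibitory receptor that T cells put on their surface after antigen recognition and that dampens signalling from the antigen receptor when it meets its ligands PD-L1 or PD-L2. Chronic stimulation keeps PD-1 on CD8+ T cells, usually together with other inhibitory receptors. Interferons act through another route. They bind receptors on nearly all cells, activate transcription factors of the STAT and IRF families, and these switch on a large set of antiviral genes from a promoter element called the interferon-stimulated response element (ISRE). An interferon signature is a known feature of lupus.

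Levels are UMIs (unique molecular identifiers, each standing for 1 captured transcript) per 1000000 UMIs of the cells concerned, abbreviated CPM. Intervals in parentheses are exact 95% limits and cover counting error only, neither mice nor preparations. No test was possible, and because clusters were formed from these same genes, a difference between clusters describes them. Cluster 6 comprised 1932633 UMIs, 3200 per cell, against 1200 to 11404 per cell in the other 11 kidney clusters. Mitochondrial transcripts made up 0.635% of its UMIs. Of its 604 barcodes, 6 also occurred in the 12W spleen library and 6 in the 28W spleen library.

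The label rests on the values below, so they describe the cluster and are no check of it. *Pdcd1* (chromosome 1, 94038305 to 94052553, minus strand, GRCm38) was at 229 CPM in cluster 6 (208 to 251, 442 UMIs). Across clusters 1 to 5 it was at 151, 65.1, 159, 116 and 69.4 CPM. In clusters 7 to 12 it was at 120, 24.6, 94.8, 124, 95.0 and 68.4 CPM. The interval of cluster 6 did not overlap that of any other kidney cluster, and the nearest was cluster 3, over which cluster 6 was 1.43-fold higher (1.27 to 1.62). Against all other kidney cells (107 CPM) the ratio was 2.13-fold (1.92 to 2.35).

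The order differed when *Pdcd1* was counted per cell. Cluster 6 had 0.732 *Pdcd1* UMIs per cell and came 4th of 12, behind cluster 11 at 1.08, cluster 1 at 0.857 and cluster 3 at 0.737. Cluster 11, whose leading genes are those of the cell cycle, had 11404 UMIs per cell in all, and cluster 1 had 5677. The name therefore holds for *Pdcd1* relative to total RNA and not for *Pdcd1* per cell.

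**Figure D1:**
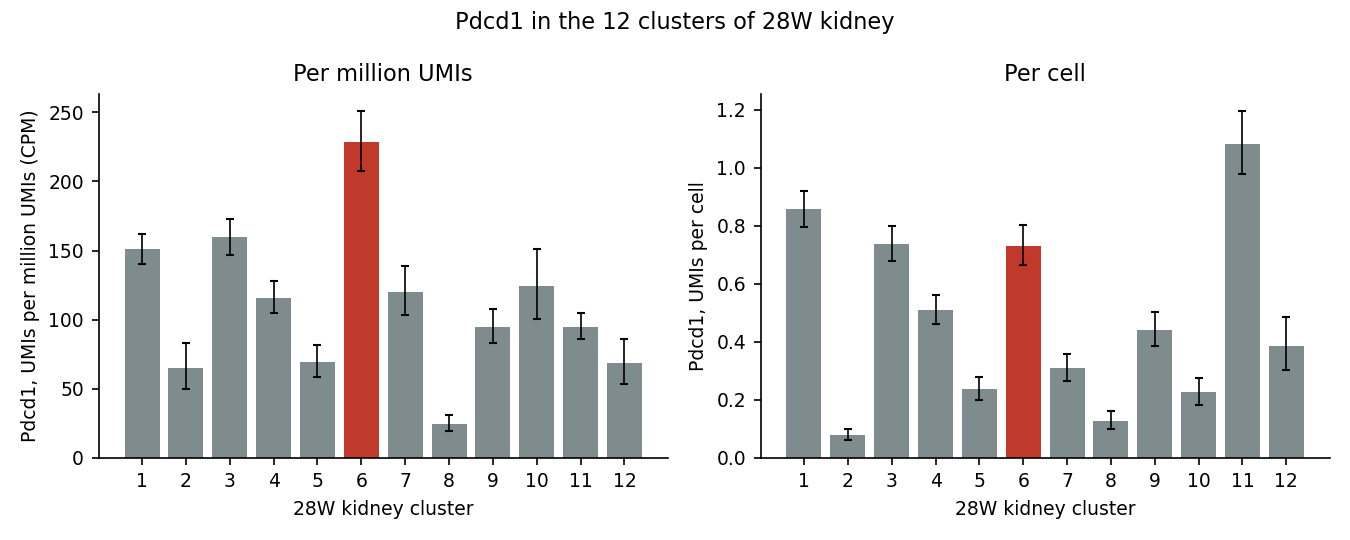
*Pdcd1* in the 12 clusters of 28W kidney, as CPM (left) and as UMIs per cell (right), with exact 95% Poisson intervals as error bars. Cluster 6, in red, stands at 229 CPM above all others on the left and is 4th, at 0.732 UMIs per cell, on the right.

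The cells carried the transcripts of CD8+ T cells. *Cd8a* was at 1114 CPM, *Cd8b1* at 1523, *Cd3d* at 1518, *Cd3e* at 1848 and *Cd3g* at 2215, and each of these was higher than in any other kidney cluster. These were 5 of the 6 listed markers, against 5.59% of all genes that were highest in cluster 6. The other marker, *Trac*, was not highest there. *Cd4* was at 1.55 CPM (3 UMIs). Of the transcripts that define other cells, several were at 0. *Ms4a1* and *Ebf1* of B cells, *Sdc1* of plasma cells, *Csf1r* and *Adgre1* of macrophages and *S100a8* and *S100a9* of neutrophils had 0 UMIs, which allows up to 1.55 CPM. The 6 B cell markers summed to 110 CPM, of which *Ighm*, the IgM heavy chain, made up 99.3 and *Cd79b*, of the B cell receptor, 10.3, and to between 120 and 2953 CPM in the other clusters. The 3 plasma cell markers summed to 13.97 CPM, all of it *Jchain*, against 10.96 to 14533. The part of these transcripts in the results was not tested. The 6 kidney tubule markers summed to 32.1 CPM in cluster 6 and to between 10.5 and 14105 CPM in the other clusters, and the 6 myeloid markers to 10.9 CPM against 6.48 to 8640.

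Other kidney clusters did hold such transcripts. Tubule markers peaked in cluster 7, B cell markers in cluster 8, neutrophil and macrophage markers in cluster 12, *Jchain* of plasma cells in cluster 2 and cell-cycle genes in cluster 11. Ratios are therefore given against all other kidney cells and, where it matters, against the 4061 cells of clusters 1, 3, 4, 5, 9 and 10, called the 6 plain T cell clusters here.

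The genes that set cluster 6 apart were those that interferons induce. Ratios were taken on log2(CPM + 1) over the 5332 genes whose mean level in cluster 6 and the other kidney cells was at least 20 CPM. Of these, 58 (1.09%) were at least 2-fold higher in cluster 6 and 216 (4.05%) at least 2-fold lower, with a median log2 ratio of 0.031. The 58 comprised 56 genes and 2 receptor segments. Of the 56, 33 belonged to the interferon-stimulated gene list, to a family of interferon-induced genes or to the RNA and DNA sensors described below. In 45 of the 56 the level was higher in cluster 6 than in any other kidney cluster, against 5.59% of all genes. The 56 were picked for a high level in cluster 6, so this count is no separate result. *Pdcd1* itself was among the 56, at a log2 ratio of 1.08. Because the filter takes a mean, a gene under 20 CPM in the other cells passes only through a higher level in cluster 6. *Gbp6* (38.3 against 11.4 CPM) and *Dhx58* (48.6 against 17.0 CPM) are examples, and such genes count in the totals of higher genes given here. Genes under 20 CPM in cluster 6 pass in the same way through the other cells.

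Promoters of many of these genes held the ISRE core. The genes were chosen by their level, and 33 of the 56 already belonged to the interferon list, families or sensors. The share with the core is therefore a description and no independent support. The ISRE core was searched as GAAA, any 2 bases, GAAA, on both strands and with overlaps allowed, from 250 bases before to 50 after each RefSeq start (GRCm38.p6). RefSeq windows matched 42 of the 56 genes. The core was found in 26 of the 42 (61.9%) and in 3.99% of the 27025 gene symbols searched, which do not cover every chromosome. Those symbols were not limited to genes that passed the filter on level, and near-identical copies such as *Ifit3* and *Ifit3b* were counted separately. Among the 12 genes with the highest ratios, 9 matched and 8 of those held the ISRE core, the exception being *Cmpk2*. The *Pdcd1* window held no ISRE core, nor did that of *Fasl*. A match is a string of letters in this window and no evidence of binding.

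The stretches below, each of 60 bases, are shown as examples of the core from 5 of the 12 genes with the highest ratios and from 3 others among the 56, *Gbp2*, *Tgtp1* and *Bst2*, and capitals mark the ISRE core. They are chr19:34583353-34583412 (plus) for *Ifit3*, chr12:26456533-26456592 (minus) for *Rsad2*, chr19:34640765-34640824 (plus) for *Ifit1*, chr4:156200857-156200916 (minus) for *Isg15*, chr8:61928014-61928073 (plus) for *Ddx60*, chr3:142620584-142620643 (plus) for *Gbp2*, chr11:48992284-48992343 (minus) for *Tgtp1* and chr8:71537563-71537622 (minus) for *Bst2*.
Ifit3: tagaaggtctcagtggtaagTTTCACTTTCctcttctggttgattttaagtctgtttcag
Rsad2: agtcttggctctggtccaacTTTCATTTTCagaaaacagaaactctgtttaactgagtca
Ifit1: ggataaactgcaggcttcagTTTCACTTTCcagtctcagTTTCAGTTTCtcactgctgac
Isg15: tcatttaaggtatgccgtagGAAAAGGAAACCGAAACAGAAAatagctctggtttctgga
Ddx60: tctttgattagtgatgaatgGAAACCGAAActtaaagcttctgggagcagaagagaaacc
Gbp2: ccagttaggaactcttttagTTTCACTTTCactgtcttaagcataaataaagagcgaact
Tgtp1: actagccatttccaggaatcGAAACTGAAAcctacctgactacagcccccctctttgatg
Bst2: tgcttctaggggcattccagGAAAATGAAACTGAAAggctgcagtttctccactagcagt
The *Isg15* stretch holds 3 overlapping cores and the *Ifit1* stretch 2 separate ones. The core of *Ifit3* begins 156 bases before its start, and the same 60 letters occur upstream of *Ifit3b* (chr19:34607749-34607808).

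Of the interferon-stimulated effectors, *Isg15*, a ubiquitin-like protein that is coupled to other proteins, was at 908 CPM in cluster 6 (866 to 952). In the other clusters it lay between 144 CPM (cluster 8) and 626 CPM (cluster 10), and its ratio to all other kidney cells was 3.74-fold (3.54 to 3.94). *Rsad2*, which encodes the antiviral enzyme viperin, was at 114 CPM against 25.0 in the other cells, 4.57-fold higher (3.91 to 5.32). *Cmpk2*, its neighbour on chromosome 12, was at 98.3 against 26.2 CPM. *Usp18*, the protease that removes ISG15 and restrains the type I interferon receptor, was at 143 against 44.0 CPM, 3.26-fold higher (2.85 to 3.71). *Isg20*, an exonuclease, was at 306 against 101 CPM, and *Bst2*, which tethers budding virus, at 662 against 315 CPM.

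The Ifit proteins bind foreign RNA, and their genes lie side by side on chromosome 19. *Ifit3* was at 478 CPM in cluster 6, 283 in cluster 10, 230 in cluster 3 and 23.0 to 172 in the other 9 clusters. *Ifit1* was at 310 CPM against 80.8 in the other cells, *Ifit3b* at 139 against 28.6, *Ifit1bl1* at 95.2 against 29.9 and *Ifit2* at 60.5 against 21.6. All 5 Ifit genes that passed the filter on level were highest in cluster 6, against 5.59% of all genes, and the remaining member, *Ifit1bl2*, was at 2.59 CPM. *Ifit3* and *Ifit3b* are near-identical copies, so the split of reads between them is uncertain. The same holds for *Ifit1* and *Ifit1bl1* and for close copies among the guanylate-binding, Ifi200 and immunity-related GTPase genes. *Ddx60*, an RNA helicase, was at 37.8 against 11.4 CPM, *Gbp6* at 38.3 against 11.4 CPM, and *Slfn5*, of the Schlafen family, at 102 against 32.2 CPM with 101 in cluster 10. These 3 complete the 12 highest ratios together with *Gbp10* below. *Slfn5* overlaps an antisense gene, and whether strand was used in counting is not given in the sources used here.

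Sensors of foreign nucleic acid and large GTPases followed. *Ddx58* (RIG-I) was at 135 against 61.0 CPM, *Ifih1* (MDA5) at 60.5 against 23.1, *Dhx58* (LGP2) at 48.6 against 17.0 and *Zbp1*, a sensor of Z-form nucleic acid, at 372 against 161. *Eif2ak2*, the kinase PKR, was at 42.4 against 17.1 CPM. By contrast, *Tmem173* (STING) was at 91.6 against 79.3 CPM, and *Mb21d1* (cGAS) at 6.21 against 6.28. Of 10 guanylate-binding protein genes, 8 passed the filter, *Gbp6* only through its level in cluster 6. Of the 8, 5 were at least 2-fold higher, against 1.09% of all genes, and all were highest in cluster 6, against 5.59%. They ran from *Gbp10* (69.9 against 20.8 CPM) to *Gbp3* (141 against 92.9). Of the 7 immunity-related GTPase genes 6 passed and 3 were at least 2-fold higher, among them *Tgtp1* at 176 against 71.6 CPM. Against all other kidney cells the Ifitm family did not share this. *Ifitm2* was at 1437 against 1315 CPM and *Ifitm3* at 67.3 against 95.4 CPM, the latter with 1867 CPM in cluster 12 and 25.5 in cluster 3. The family's median log2 ratio was 0.13 against all other kidney cells and 0.49 against the 6 plain T cell clusters. Against those clusters, 1 of the 3 Ifitm genes that passed was at least 2-fold higher.

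In the list of 12 interferon-stimulated genes, 11 passed the filter, 9 were at least 2-fold higher, against 1.09% of all genes, and 9 were the highest of the 12 clusters, against 5.59%. The median log2 ratio was 1.59 (1.47 to 1.73), and 1.37 against the 6 plain T cell clusters. *Irf7*, at 220 against 112 CPM, and *Ifi27l2a*, at 4007 against 2292 CPM, fell short of 2-fold, and *Oasl2*, at 25.9 CPM, did not pass the filter. Over the 7 gene families taken by symbol, 37 of 59 genes passed and 36 of the 37 had a log2 ratio above 0, beside 2896 of all 5332 genes.

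Levels of the receptors and of most signalling genes differed less than those of their targets. *Ifnar1* was at 74.5 against 56.5 CPM, *Ifnar2* at 174 against 140, *Jak1* at 288 against 259 and *Tyk2* at 23.8 against 17.2. *Ifngr1*, of the interferon gamma receptor, was at 188 against 212 CPM. Of the 16 listed receptor and signalling genes 15 passed, 2 were at least 2-fold higher, *Usp18* among them, and 2 lower, the factor *Irf8* (12.9 against 47.6 CPM) and the feedback inhibitor *Socs3* (14.5 against 57.4). Against the 6 plain T cell clusters, 1 of the 15 was at least 2-fold higher and 1 lower. Among all genes 1.09% were higher and 4.05% lower against all other kidney cells, and 0.539% and 0.462% against those clusters. Of the transcription factors, *Irf9* was at 118 against 76.4 and *Stat2* at 44.0 against 27.7. The interferon gamma transcript *Ifng* was at 84.3 CPM in cluster 6 and 85.1 in the other cells. Class I antigen presentation, which interferons also raise, was higher by less than 2-fold in all 12 listed genes. Of the 12, 9 were highest in cluster 6, against 5.59% of all genes. *H2-K1* was at 4450 against 3195 CPM and *Tap1*, of the peptide transporter, at 245 against 169 CPM.

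**Figure D2:**
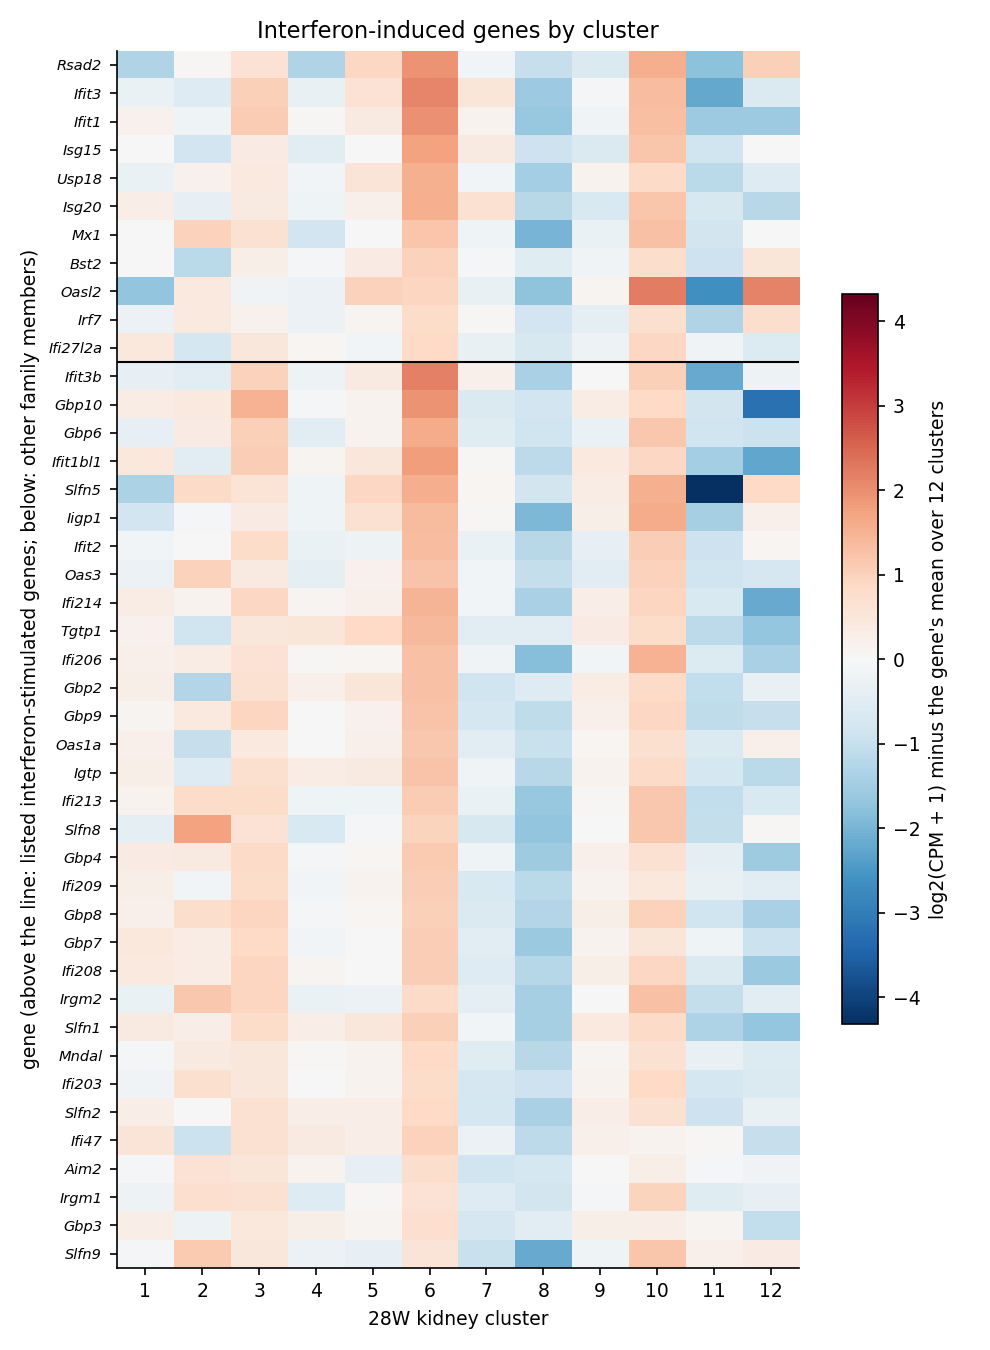
Interferon-induced genes (rows) in the 12 clusters of 28W kidney (columns), as log2(CPM + 1) minus the gene's mean over the clusters, with 11 of the 12 listed genes above the line and other Ifit, Oas, Gbp, Ifi200, Schlafen and immunity-related GTPase genes that passed the filter below. Cluster 6 is red in every row, cluster 10 is the next reddest column in many, and clusters 8 and 11 are mostly blue.

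Cluster 10 came next for most of these genes. For 32 of the 56 genes it was the highest of the other 11 clusters. It held 425 cells at 1822 UMIs per cell, with *Isg15* at 626 CPM, *Ifit1* at 190 CPM and *Pdcd1* at 124 CPM. *Ccl5*, a chemokine of effector CD8+ T cells, separated the pair, at 15923 CPM in cluster 6 and 7763 CPM in cluster 10.

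Inhibitory receptors did not all follow *Pdcd1*. *Lag3*, which binds MHC class II, was at 109 CPM in cluster 6 (94.5 to 124), the highest of the 12, against 62.2 in the other cells. *Tigit*, a receptor for nectin-like ligands, was at 125 CPM, next to 130 CPM in cluster 3. *Entpd1*, the ectoenzyme CD39, was at 56.9 against 33.7 CPM. *Ctla4*, which competes with CD28 for its ligands, was at 13.97 CPM (9.21 to 20.3), 11th of 12, against 45.9 in the other cells and 30.6 in the 6 plain T cell clusters. It ranged from 10.8 CPM in cluster 7 to 213 CPM in cluster 8. *Havcr2* (TIM-3), at 3.10 CPM, and *Btla*, at 6.21 CPM, were near the limit of detection. Of the 12 listed receptors with a value, 6 passed the filter. Of these *Pdcd1* alone was at least 2-fold higher and *Ctla4* alone at least 2-fold lower. *Cd274*, which encodes the ligand PD-L1 and is itself interferon-inducible, was at 41.4 against 24.5 CPM.

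Some genes that antigen receptor signalling switches on within hours were low. *Nr4a1*, an orphan nuclear receptor used as a reporter of such signalling, had 5 UMIs (2.59 CPM, 0.840 to 6.04), the lowest of the 12 clusters. In the others it ran from 9.04 CPM in cluster 10 to 733 CPM in cluster 8, and cluster 6 was 6.52-fold lower (2.76 to 20.2) than the 6 plain T cell clusters. *Nr4a3* was also lowest in cluster 6, with 5 UMIs. *Myc* was at 15.01 against 43.9 CPM and *Bhlhe40* at 27.9 against 90.1 CPM, both the lowest of the 12. Of the 14 listed genes 9 passed, 4 were at least 2-fold lower, against 4.05% of all genes, and 3 were the lowest of the 12 clusters, against 1.28%. *Nfatc1* (111 against 95.3 CPM) and *Batf* (87.4 against 87.7 CPM) did not share this. The summed level of the 14 genes, 437 CPM, lay within the 385 to 703 of the 6 plain T cell clusters. *Nr4a1*, *Nr4a3*, *Myc* and *Bhlhe40* were each highest in cluster 8, which holds B cell transcripts, and the median of the log2 ratios was -0.77 against all other kidney cells and -0.20 against the 6 plain T cell clusters, where 1 of the 9 was at least 2-fold lower. For the list of AP-1 and NF-kB genes these medians were -0.89 and -0.25, with *Junb*, a subunit of AP-1, at 277 against 791 and 406 CPM. The part that the digestion of the kidney has in early-response genes was not tested.

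The genes of naive and memory T cells were low, though not lower than in each plain T cell cluster. Their summed level was 566 CPM in cluster 6 and 491 to 2274 in the 6 plain T cell clusters. *Ccr7*, the chemokine receptor that guides T cells to lymph nodes, was at 13.97 CPM against 42.5 in the 6 plain T cell clusters, and *Il7r*, which sustains memory cells, at 41.9 against 225 CPM, 5.38-fold lower (4.32 to 6.79). *Klf2*, which drives *S1pr1*, was at 92.6 against 247 CPM, and *Id3*, an inhibitor of E proteins, at 18.1 against 56.8. *Tcf7*, the factor TCF-1 of stem-like cells, was at 54.8 against 91.7 CPM. Of 14 listed genes 11 passed. Against all other kidney cells 5 were at least 2-fold lower, where 4.05% of all genes were. Against the 6 plain T cell clusters 5 were, where 0.462% of genes were. *Ccr7* and *Satb1*, 2 of the 11, were each the lowest of the 12 clusters, against 1.28% of all genes.

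Effector genes were mixed. *Ccl5* was at 15923 CPM against 6914 in the other cells and 11172 in cluster 3, the next highest. It made up more of the RNA of cluster 6 than of any other kidney cluster. *Fasl*, the death ligand, was at 143 against 67.8 CPM, 2.105-fold higher (1.85 to 2.39), and *Gzmk* at 902 against 552 CPM, both the highest of the 12. *Prf1* (perforin) was at 135 CPM, next to 138 in cluster 3, and *Nkg7* at 2722 CPM, next to 2841 in cluster 1. *Gzmb* did not follow, at 281 against 282 CPM, with 696 CPM in cluster 1 and 603 in cluster 11. *Ifng* and *Tnf* (59.5 against 63.9 CPM) did not differ beyond their intervals. Of 12 listed cytotoxic genes 11 passed, 1 was at least 2-fold higher and 0 lower, against 1.09% and 4.05% of all genes.

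Among chemokine receptors, *Cxcr6*, which marks effector cells that enter tissue, was at 870 CPM (829 to 913), beside 861 CPM in cluster 3 and 826 in cluster 1, and the counting intervals of these 3 clusters overlapped. *Cxcr3*, whose ligands are interferon-induced, was at 651 against 406 CPM. *Cxcl10*, such a ligand, was at 89.5 against 38.2 CPM. Markers of tissue residency diverged, with *Itgae* (CD103) at 2 UMIs and *Rgs1* at 473 against 353 CPM. *Tox*, a factor of chronically stimulated cells, was at 99.3 against 74.0 CPM, *Eomes* at 105 against 92.5 and *Tbx21* (T-bet) at 89.0 against 72.5. Costimulatory *Tnfrsf4* (OX40) had 2 UMIs and *Tnfrsf9* (4-1BB) was at 7.24 CPM.

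Proliferation genes were low, though not lower than in each plain T cell cluster. Their summed level was 512 CPM in cluster 6, 395 to 1230 in the 6 plain T cell clusters and 9935 in cluster 11. All 10 proliferation genes were at least 2-fold lower than in the other kidney cells, against 4.05% of all genes. Those cells include cluster 11, and *Mki67* was at 8.28 against 87.3 CPM. Against the 6 plain T cell clusters 3 of the 10 were at least 2-fold lower, against 0.462% of genes. *Pclaf* had 2 UMIs (1.03 against 24.3 CPM, 23.5-fold lower, 6.47 to 195). Glycolytic genes were modestly lower than in all other kidney cells, with *Ldha* at 368 against 539 CPM, *Tpi1* at 27.9 against 78.6 and a list median of -0.32. Against the 6 plain T cell clusters the median was -0.28 and 0 glycolytic genes were at least 2-fold lower. The summed level, 3436 CPM, lay within the 2385 to 5523 of those clusters.

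The other listed programs had medians between -0.093 and 0.74, beside 0.031 for all genes. None of the 21 genes of T cell receptor and PD-1 signalling was 2-fold higher or lower, and their median was 0.29, with *Zap70*, the kinase at the receptor, at 165 against 159 CPM and *Ptpn11* (SHP-2), which binds PD-1, at 47.6 against 47.3. Medians were 0.74 for inhibitory receptors, 0.73 for chemokines (2 of 5 that passed were 2-fold higher), 0.48 for chemokine receptors, 0.42 for tissue residency and 0.41 for cytotoxic genes. They were 0.35 for NK receptors, 0.30 for cytokine receptors, 0.22 for costimulatory receptors, 0.21 for effector and exhaustion transcription factors, 0.16 for integrins and adhesion, 0.11 for heat shock, -0.056 for cytokines and -0.093 for S100, annexin and galectin genes. In these last 8 lists *Id3* was the single gene that passed the filter and differed by 2-fold.

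**Figure D3:**
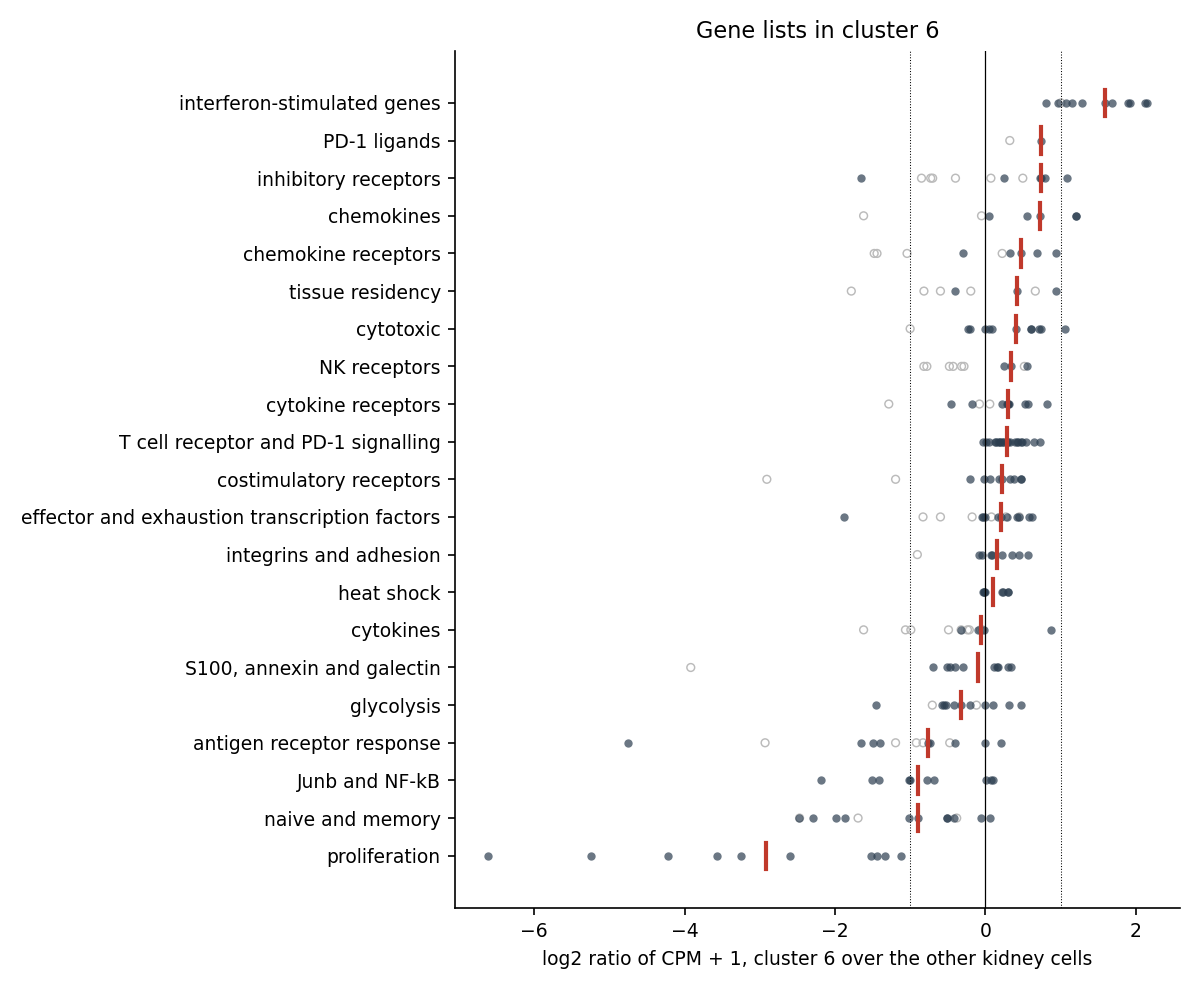
Log2 ratio of CPM + 1 of cluster 6 over the other kidney cells for each gene of the 21 listed programs. Filled points passed the filter, open points did not, red bars are medians of the filled points and dotted lines mark 2-fold; interferon-stimulated genes lie at the top (median 1.59) and proliferation genes at the bottom (median -2.92).

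The 8 genes with the lowest ratios all had their peak in another kind of cluster. *S100a8*, *S100a9*, *Camp* and *Gm20730* had 0 UMIs, and *S100a8* was at least 142-fold lower than in the other cells at the limit of 3 UMIs. *Hbb-bs* had 3 UMIs, *Pclaf* 2, *Ube2c* 1 and *Birc5* 1. Of the 216 lower genes, which include 37 receptor or immunoglobulin segments, 210 were highest in cluster 2, 7, 8, 11 or 12. Against those 6 clusters, 28 of 5191 genes (0.539%) were at least 2-fold higher and 24 lower. The higher ones were led by *Rsad2* at 4.05-fold (3.44 to 4.75) and *Ifit3b* at 3.78-fold (3.26 to 4.36). The lower ones included *Tmem176b* (5.69 against 51.0 CPM) and *Tmem176a* (4.66 against 40.5), a pair of membrane channel genes.

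The widest leads over the next cluster included genes outside the lists above. *Jaml*, an adhesion molecule of T cells that bind epithelium, was at 183 CPM, with 123 in cluster 3 next. *Ildr1* was at 44.0 CPM, with 25.5 in cluster 3 next. *Rtp4* (295 CPM) and *Parp9* (107 CPM) also stood among the 10 widest margins, beside 6 genes named above. The widest margins below the next lowest cluster were those of *Nr4a1*, *Cenpf*, *Ube2c*, *Tmbim4* (12.4 CPM, next 22.8) and *Atic* (19.1 CPM, next 32.4). *Atic* catalyses the last steps of purine synthesis.

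Over all filtered genes the kidney cluster most like cluster 6 was cluster 3 (806 cells, Pearson r = 0.986 across 5332 genes on log2(CPM + 1)), followed by cluster 4 (r = 0.968). Genes are not independent, and these values describe likeness only. Cluster 3 also had the next highest *Pdcd1*. Against it, 11 of 5403 genes (0.204%) were at least 2-fold higher in cluster 6 and 8 (0.148%) lower, 2 of these 8 being receptor segments. The 11 were *Cxcl10*, *Isg15*, *Ifitm3*, *Rsad2*, *Ube2l6*, *Ifit3b*, *Isg20*, *Cmpk2*, *Usp18*, *Dhx58* and *Ifit3*, all interferon-induced genes. *Cxcl10* led at 89.5 against 23.4 CPM, 3.83-fold (2.95 to 5.02), and *Isg15* followed at 908 against 349 CPM, 2.60-fold (2.42 to 2.80). The 6 lower genes were *Igha* (5.17 against 54.5 CPM), an immunoglobulin gene, *Hspb1*, *Ctla4* (13.97 against 33.8), *Il7r* (41.9 against 88.1), *Aff3* and *Sdad1*.

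Against cluster 4 (786 cells), 117 of 5049 genes (2.32%) were at least 2-fold higher and 34 (0.673%) lower. *Rsad2* led at 114 against 11.3 CPM, then *Gzmb* at 281 against 50.4 CPM, 5.59-fold (4.70 to 6.67), *Ifit3*, *Ifit3b* and *Isg15*. Among the lowest were *Tmem176b* (5.69 against 139 CPM), *Tmem176a*, *Il7r* (41.9 against 266) and *Id3*. The genes at the ends of the comparison with cluster 4 thus included effector and memory genes as well as interferon-induced ones.

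**Figure D4:**
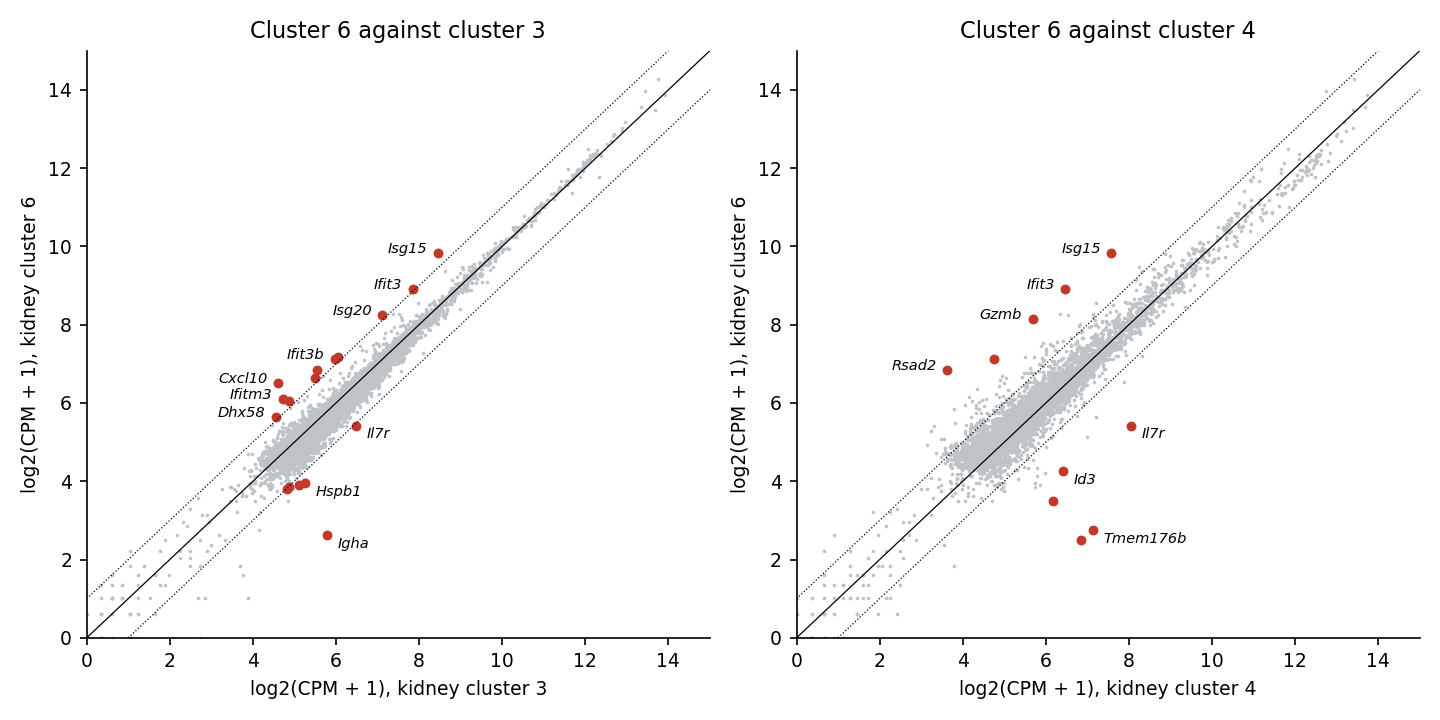
Each grey point is a gene, placed by its log2(CPM + 1) in cluster 6 (vertical) and in cluster 3 (left) or cluster 4 (right), with dotted lines at 2-fold and in red the 11 higher and 6 lower genes (left) or the 5 highest and 5 lowest (right), many of them labelled. The 11 genes above the upper line on the left include *Isg15*, *Ifit3* and *Cxcl10*.

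The genes whose levels ran most like *Pdcd1* over the 12 kidney clusters were *Cxcr6* (r = 0.962), *Tapbpl* (0.947), *Actn2* (0.939), *5830432E09Rik* (0.939) and *1600014C10Rik* (0.929). *Myc* (-0.914) and *Nr4a1* (-0.894) ran most opposite. The 12 points share a library and differ in depth and in content of other cells, so these are descriptions. The mean log2 level of the 12 interferon-stimulated genes correlated with *Pdcd1* at r = 0.645 over the 12 clusters and at r = 0.519 without cluster 6. Without clusters 7, 8 and 12 it was r = 0.505. *Ccl5* ran closer to *Pdcd1*, at r = 0.747, 0.678 and 0.836 over the same sets of clusters.

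In spleen the correlation of *Pdcd1* with the interferon-stimulated genes was r = 0.0541 over 11 clusters at 28W and r = -0.381 over 10 clusters at 12W. Whether it differs from kidney was not tested. In 28W spleen the cluster with the highest interferon-stimulated genes was cluster 4 (853 cells), with *Isg15* at 513 CPM, *Ifit3* at 345 CPM and *Usp18* at 167 CPM, the last above its 143 CPM in kidney cluster 6. *Pdcd1* there was at 32.9 CPM (27.2 to 39.4), 7th of 11 clusters. That cluster also had *Il7r* at 760 CPM, *Cxcr6* at 41.3, *Gzmb* at 10.1 and *Ctla4* at 120 CPM, against 41.9, 870, 281 and 13.97 CPM in kidney cluster 6. The highest *Pdcd1* of a spleen cluster was 75.5 CPM in cluster 9 of 28W spleen (52.0 to 106) and 69.7 CPM in cluster 9 of 12W spleen. In 12W spleen *Isg15* reached at most 127 CPM in a cluster. Each library had its own normalization in the deposited values, so levels set across libraries rest on rescaling to total UMIs, and organ and digestion cannot be told apart here.

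**Figure D5:**
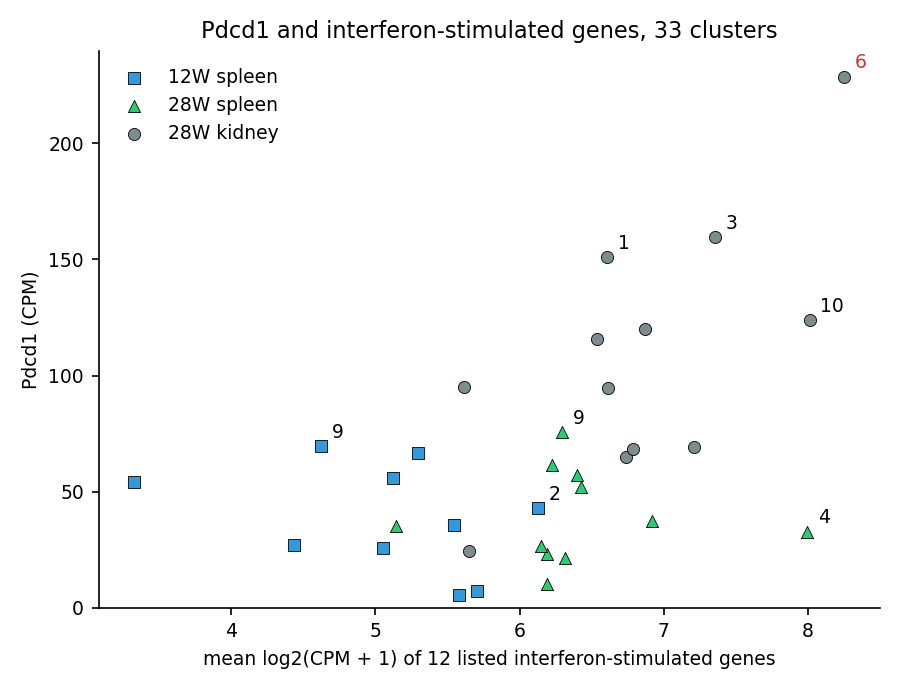
*Pdcd1* (CPM) against the mean log2(CPM + 1) of 12 listed interferon-stimulated genes in 33 clusters, 10 of 12W spleen (squares), 11 of 28W spleen (triangles) and 12 of 28W kidney (circles), with some cluster numbers given. Kidney cluster 6 is at the upper right at 229 CPM, while cluster 4 of 28W spleen has interferon genes at nearly the same level with *Pdcd1* at 32.9 CPM.

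Antigen receptor segments were used in much the same order as in the other kidney cells. *Trbv13-1* made up 27.3% of 4194 Trbv UMIs in cluster 6 (26.0 to 28.7) and 25.1% in the other kidney cells, *Trbv13-2* 24.8% and 23.0%, and *Trbv14* 11.2% (10.3 to 12.2) and 8.44% (8.19 to 8.69). *Trbv14* had the largest difference, 2.79 points. The effective number of Trbv segments, the inverse of the summed squared shares, was 5.90 in cluster 6, 6.23 to 7.58 in the 6 plain T cell clusters and 5.53 to 8.18 over all other kidney clusters. Among 1803 Trav UMIs, *Trav5-4* (6.66%), *Trav2* (5.66%) and *Trav10d* (4.83%) led. *Trav3-3* had the largest difference, at 4.27% against 7.61%, followed by *Trav2* and *Trav4-4-dv10* (4.38% against 2.76%). Since cells of a clone carry the same segments, the true error is wider than these counting intervals. The gamma chain constant gene *Tcrg-C2* was at 23.3 against 7.82 CPM while the delta chain gene *Trdc* had 3 UMIs.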

How the data were processed

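PD-1+CD44+CD8+ T cells of 3 groups were profiled with 10x Genomics 5′ v2 libraries, which count UMIs. Per the labels, Cell Ranger 2.1.1, R 3.6.1 and GRCm38 were named in the submitters' processing notes; cell filters, doublet handling, clustering parameters and annotation release are not given in the sources used here. For each library the authors deposited each barcode's cluster and, per gene and cluster, a mean UMI count scaled to the library median, plus log2 fold changes and adjusted p-values of their own, which were not used. Each column holds whole multiples of the value of 1 UMI, so whole UMIs were recovered (100% of values within 0.001 of a whole number) and expressed as CPM.

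Ratios used log2(CPM + 1), which understates differences of genes with few UMIs, and a filter of at least 20 CPM in the mean of cluster 6 and the comparison cells. Poisson, binomial and ratio limits were exact (scipy 1.17.1; ratio limits by the conditional binomial). A list's interval is the median of its genes' limits. With 1 library per group no test was run. Calculations used Python with numpy and pandas and were tested on simulated data. Coordinates are from GENCODE M21, in which 17762 of 17790 gene identifiers were found. Promoter windows came from RefSeq, GRCm38.p6; 14 of the 56 higher genes were not matched, among them *Usp18*, *Gbp10*, *Mx1* and *Ccl5*.

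The cluster, the gene lists and the rules were chosen with earlier results of these data known; the families, sensors, signalling and antigen presentation lists were written after the values were seen. Besides listed genes, genes were named by rule: the 12 highest and 8 lowest ratios, the 10 widest margins over and 5 under the next cluster, the 5 highest and 5 lowest against each of the 2 most similar clusters, the 5 most like *Pdcd1*, and the 3 most used and 3 most different Trbv and Trav segments; others were chosen after their values were seen. Alternatives covered the pseudocount, filter, library total, scaling, comparison cells and counting per cell. A few members of the lists count toward the totals but are not reported here.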

Additional observations from a re-analysis of the deposited data

How the results depend on the processing

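No paired analysis was possible because the tables pool the numbered samples of each group, and leaving out a replicate was not possible for the same reason. The *Pdcd1* log2 ratio (1.08) was 0.94 without clusters 7, 8 and 12, 0.84 without clusters 2, 7, 8, 11 and 12, and 0.66 in UMIs per cell; under the other 4 alternatives it stayed within its interval. The 58 higher genes became 28 with a filter of 100 CPM, 131 with no filter, 28 without clusters 2, 7, 8, 11 and 12, and 18 per cell. The 216 lower genes became 60, 1769, 24 and 377 under the same settings, and 126 without clusters 7, 8 and 12. The median of the interferon-stimulated genes (1.59) was 1.37 with the filter of 100 CPM, 1.44 with no filter, 1.37 without clusters 2, 7, 8, 11 and 12, 1.17 per cell, and 1.06 over families taken by symbol, a list added after seeing the data; it stayed above 0 in all. Counting per cell turned list medians below 0 for T cell receptor and PD-1 signalling (-0.13), effector and exhaustion transcription factors (-0.21), cytotoxic genes (-0.012), cytokine receptors (-0.13), tissue residency (-0.00062), NK receptors (-0.077), heat shock (-0.32), costimulatory receptors (-0.20) and integrins and adhesion (-0.27), since cluster 6 has fewer UMIs per cell. No filter gave -0.30 for tissue residency and -0.30 for NK receptors. S100, annexin and galectin genes (-0.093) had medians above 0 with the filter of 100 CPM (0.11) and against the mean of the 11 other clusters (0.15). Of the 20 other lists, 10 kept their sign throughout. Cluster 3 remained the most similar (r = 0.993 at 100 CPM). Depth limits genes under about 1.55 CPM in cluster 6, the level of 3 UMIs.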
